A study of Mus musculus with 17 samples.

Results

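The comparison described here was that of CBP-ifKO mice and control littermates that had been kindled with pentylenetetrazole (PTZ) and were given saline on the last day. Its members were the 6 libraries of the PTZ0 groups among the 17 of the series, chosen by group label, with 3 libraries labelled Control PTZ0 and 3 labelled CBP-ifKO PTZ0. Each library held total RNA of the hippocampus of a male C57BL/6 mouse aged 3 to 6 months. CBP-ifKO mice carried floxed Crebbp and the tamoxifen-inducible recombinase creERT2 under Camk2a control, so that after tamoxifen excitatory neurons of the forebrain make a truncated CBP without acetyltransferase activity, while glia and interneurons keep the intact gene. Controls also received tamoxifen and were, by the methods of the study, littermates without creERT2, although the labels name the transgene for both genotypes. Every mouse of these 6 had received PTZ at 45 mg/kg on alternate days, a dose too low to cause convulsions at first, and was killed 45 min after a last injection of saline, so no library reports an acute response to PTZ. Kindled here names the treatment given. The seizures of each mouse are not in the labels, so genotype and seizure history cannot be told apart.

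CBP, encoded by Crebbp, is a coactivator that binds CREB and many other transcription factors and acetylates histones at promoters and enhancers. It shares much of its structure with p300, the product of Ep300. In neurons, calcium entry during activity leads to phosphorylation of CREB, and genes of growth factors, neuropeptides and synaptic proteins are among those known to be induced. Kindling is a protocol in which repeated doses of a convulsant that blocks GABA-A receptors lower the threshold for seizures, and it is used to study lasting changes of hippocampal circuits.

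The Control PTZ0 libraries held 10512963 to 14057204 counts and the CBP-ifKO PTZ0 libraries 9883310 to 14935438. Within each group all pairs of libraries were more variable than sampling of reads alone gives (chi-square divided by its degrees of freedom, 2.31 to 8.35). Mitochondrial transcripts took 6.09% to 6.50% of counts in controls and 6.22% to 7.42% in CBP-ifKOs. Control PTZ0 replicate 2 and CBP-ifKO PTZ0 replicate 3 stood apart by their content of choroid plexus, the epithelium beside the hippocampus that makes cerebrospinal fluid. Its 14 markers summed to 41505 and 57622 normalized counts there (counts divided by the DESeq2 size factor) against 2493 to 3904 in the other 4 libraries, so counts of genes are given with and without these libraries. All Control PTZ0 libraries were sequenced on lane 3 and all CBP-ifKO PTZ0 libraries on lane 5, so genotype and lane cannot be told apart within these 6 libraries.

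The targeted gene was lower in every CBP-ifKO library. Crebbp (chr16:4081328-4213997 in GRCm38, minus strand) had 2193, 2057 and 2039 normalized counts in the 3 Control PTZ0 libraries and 1278, 1153 and 1226 in the 3 CBP-ifKO PTZ0 libraries (log2 fold change -0.78, SE 0.069, DESeq2 adjusted p = 4.84e-26). The source of the remaining reads (untargeted cells, the truncated transcript or unrecombined alleles) was not tested, and in bulk RNA fewer cells of a type and less RNA per cell cannot be told apart. Its paralogue Ep300 had 1095, 1096 and 1154 normalized counts in controls and 1478, 1189 and 1431 in CBP-ifKOs (log2 fold change 0.29, SE 0.085, DESeq2 adjusted p = 0.0149). The Ep300 levels did not overlap between the groups, but the call was lost in 8 of 15 alternative analyses, among them leave-one-out fits (without Control PTZ0 replicates 1, 2 or 3 or CBP-ifKO PTZ0 replicates 1 or 3, DESeq2 adjusted p = 0.0624 to 0.186). The transgene was read through its own sequences. Esr1, whose exons form part of creERT2, had 57.1, 41.0 and 65.7 normalized counts in controls and 836, 888 and 709.7 in CBP-ifKOs (log2 fold change 3.88, SE 0.16, DESeq2 adjusted p = 3.05e-129), so the counts of the endogenous oestrogen receptor gene cannot be separated from the transgene. Arsi, a neighbour of Camk2a carried on the driver construct, had 17.6, 9.37 and 12.4 normalized counts in controls and 101, 49.6 and 77.3 in CBP-ifKOs (log2 fold change 2.50), with no adjusted p in DESeq2 because of its low mean. Both transgene reporters were low in each control library, although the labels name the transgene for controls too.

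In kindled mice given saline, far more genes were lower than higher without CBP. Of 12752 genes tested with DESeq2 (Wald test, two-sided, Benjamini-Hochberg), 670 were called lower in CBP-ifKOs (5.25%) and 182 were called higher (1.43%), at an adjusted p under 0.05. The median log2 fold change was -0.34 among the genes called lower and 0.35 among those called higher, against 0.00058 over all genes tested. Changes were small, with 19 genes at least 2-fold lower and 3 at least 2-fold higher, and 811 of the 852 called genes were protein coding. The call with the weakest support had an adjusted p of 0.0497 and the nearest gene outside the threshold had 0.0503. Without both choroid-rich libraries, 140 genes were called lower and 20 higher, of which 124 and 18 were among the calls made from all 6 libraries. That fit compares 2 libraries with 2, and in it the median log2 fold change was -0.31 over the 670 lower genes and 0.36 over the 182 higher genes. The quasi-likelihood test of edgeR called 865 genes lower and 563 higher, and TMM size factors gave 581 and 244, so the excess of lower over higher genes was kept while its size depended on the method. Leaving out a single library lowered the counts by over 1.5 times in most cases, to 275 lower and 52 higher without Control PTZ0 replicate 1, 318 and 57 without replicate 2, 309 and 67 without replicate 3, and 320 and 62 without CBP-ifKO PTZ0 replicate 3. Without CBP-ifKO PTZ0 replicate 1 the counts were 605 lower and 118 higher, and without replicate 2 they were 734 and 179. Every CBP-ifKO library lay below every control for 1940 of the 12752 genes tested (15.2%) and above every control for 1739 (13.6%), so a separation of the groups, where it is stated for a gene below, is a description shared with many genes. The p-values set each difference between the groups against the spread between mice of a group. Lane differs between the groups and is part of that difference.

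The largest decrease belonged to C1ql2 (chr1:120340582-120343174, plus strand), a secreted C1q-like protein of mossy fibre synapses, which had 367, 293 and 283 normalized counts in the Control PTZ0 libraries and 84.0, 103 and 95.4 in the CBP-ifKO PTZ0 libraries (log2 fold change -1.73, SE 0.16, DESeq2 adjusted p = 8.25e-23). Otof (chr5:30367062-30461932, minus strand), a calcium sensor of vesicle release known from the hair cells of the ear, followed with 137, 96.0 and 92.4 against 35.3, 33.4 and 33.1 (log2 fold change -1.68, SE 0.26, DESeq2 adjusted p = 2.71e-08). The CBP-ifKO mean was 0.301 of the control mean for C1ql2 and 0.311 for Otof. Serpina3n, a secreted inhibitor of serine proteases, had 363, 348 and 458 in controls and 158, 133 and 122 in CBP-ifKOs (log2 fold change -1.51, SE 0.15, DESeq2 adjusted p = 2.28e-20). Wnt4, a Wnt ligand, had 108, 107 and 117 and 31.7, 51.6 and 40.2 (log2 fold change -1.41, SE 0.24, DESeq2 adjusted p = 8.74e-07). These 4 genes were chosen among genes whose groups do not overlap. None lost its call in those of the 15 alternatives that gave it an adjusted p, but with lane as a term Serpina3n and Wnt4 were not called (DESeq2 adjusted p = 0.254 and 0.454).

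The same rule of size named Wfs1, a protein of the endoplasmic reticulum that marks CA1 pyramidal cells, with 781, 885 and 659 normalized counts in controls and 334, 305 and 339 in CBP-ifKOs (log2 fold change -1.25, SE 0.11, DESeq2 adjusted p = 3.15e-24). Rgs14, a regulator of G protein signalling concentrated in CA2, had 871, 859 and 912 and 426, 414 and 364 (log2 fold change -1.14, SE 0.095, DESeq2 adjusted p = 1.39e-29). Fxyd7, a subunit that modulates the sodium pump, had 161, 126 and 120.0 and 56.0, 64.9 and 71.0 (log2 fold change -1.08, SE 0.21, DESeq2 adjusted p = 3.58e-05). For these 3 genes too the rule required groups that do not overlap. The adaptor gene Fyb2 was also lower (log2 fold change -1.12, SE 0.27, DESeq2 adjusted p = 0.00141), with counts that may include an antisense gene, and lost its call without Control PTZ0 replicate 3 (adjusted p = 0.0579). Of the long noncoding RNAs, Gm26644 had 142, 138 and 123 and 25.6, 64.9 and 39.4 (log2 fold change -1.62, SE 0.26, DESeq2 adjusted p = 6.22e-08), and 4921539H07Rik had a log2 fold change of -1.46 (SE 0.21, DESeq2 adjusted p = 6.1e-10). Counting by strand was not stated for these files, so the counts of 4921539H07Rik may include an opposite-strand neighbour. The plot of the genes with the largest fold changes shows each library.

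**Figure D1:**
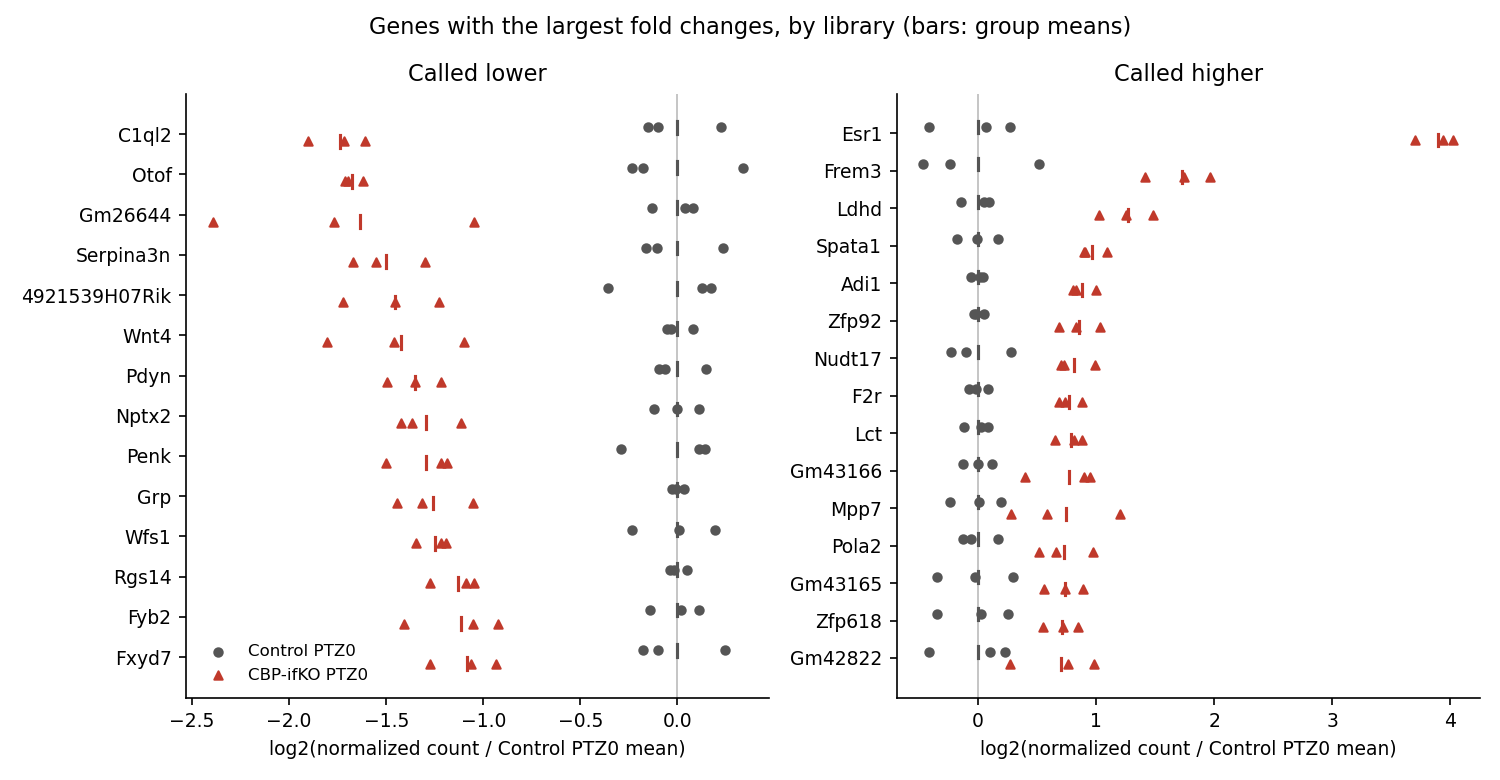
Normalized counts of up to 15 genes per direction, chosen by size of fold change, as log2 of the ratio to the Control PTZ0 mean on the x axis, with 1 gene per row. Circles are the 3 Control PTZ0 libraries, triangles the 3 CBP-ifKO PTZ0 libraries and bars the group means. Genes were eligible only where the groups do not overlap, with C1ql2 lowest at a log2 fold change of -1.73 and Esr1, which reports the transgene, highest at 3.88.

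Genes of the late response to neuronal activity were among those most often lower. Of 38 listed late response genes, 30 were tested, 15 were called lower (50.0% of those tested, against 5.25% of all genes) and 0 were called higher, with a median log2 fold change of -0.28. Several of these genes were placed on the list because the study had named them from mice of the same line, partly in this series, so the list is no independent evidence of their direction. With both choroid-rich libraries left out, 6 were called lower, and over all alternatives 6 to 18. Bdnf, the neurotrophin of activity-dependent synapse growth, had 569.7, 599.7 and 602 normalized counts in controls and 329, 352 and 297 in CBP-ifKOs (log2 fold change -0.86, SE 0.11, DESeq2 adjusted p = 3.33e-13). Nptx2, a secreted pentraxin that clusters AMPA receptors, had 134, 124 and 114 and 46.3, 57.3 and 48.1 (log2 fold change -1.29, SE 0.22, DESeq2 adjusted p = 7.09e-07). Rgs4, which speeds the shut-off of G protein signals, had 1996, 1837 and 1907 and 1102, 1233 and 1120.5 (log2 fold change -0.73, SE 0.073, DESeq2 adjusted p = 1.56e-20). Every CBP-ifKO library lay below every control library for these 3 genes. Smaller or less stable differences were those of Sorcs3, a sorting receptor of the Vps10 family, and Ptgs2, the inducible cyclooxygenase, with log2 fold changes of -0.32 and -0.37. Leaving out 1 library ended the call for Sorcs3 (without Control PTZ0 replicates 1, 2 or 3, DESeq2 adjusted p = 0.0589 to 0.102) and Ptgs2 (without Control PTZ0 replicates 1, 2 or 3 or CBP-ifKO PTZ0 replicates 1 or 3, DESeq2 adjusted p = 0.062 to 0.203).

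Precursors of secreted peptides were lower in part. Of 39 listed neuropeptide and granin genes, 21 were tested, 7 were called lower (33.3%) and 0 higher, with a median log2 fold change of -0.25, and 5 were called lower with both choroid-rich libraries left out. Penk, Pdyn, Vgf and Pcsk1 are on the late response list too and were counted there, so the lists are not independent of each other, and what was said of genes named by the study holds here as well. Penk (chr4:4133531-4138819, minus strand), the precursor of enkephalins, had 205, 155 and 209 normalized counts in controls and 67.0, 83.1 and 81.2 in CBP-ifKOs (log2 fold change -1.29, SE 0.19, DESeq2 adjusted p = 3.6e-09). Pdyn (chr2:129686565-129699844, minus strand), the precursor of dynorphins in granule cells, had 100.1, 116 and 98.1 and 45.0, 41.1 and 37.1 (log2 fold change -1.36, SE 0.24, DESeq2 adjusted p = 2.2e-06). The CBP-ifKO means of these opioid peptide precursors were 0.409 and 0.391 of the control means. Grp, gastrin-releasing peptide, had 201, 198 and 207 and 74.3, 97.4 and 81.2 (log2 fold change -1.25, SE 0.17, DESeq2 adjusted p = 3.51e-10). Cck, cholecystokinin, had 1808, 1812 and 1752 and 1107, 1296 and 923 (log2 fold change -0.69, SE 0.097, DESeq2 adjusted p = 3.14e-10). Vgf, the source of several secreted peptides, had 485, 425 and 448 and 331, 298 and 263 (log2 fold change -0.62, SE 0.12, DESeq2 adjusted p = 1.92e-05). Pcsk1, the convertase that cuts peptide precursors in secretory granules, had 529, 545 and 549 and 384, 409 and 383 (log2 fold change -0.46, SE 0.10, DESeq2 adjusted p = 0.000214). None of these 6 genes overlapped between the groups, and of them Pcsk1 lost its call with both choroid-rich libraries left out (adjusted p = 0.18). Sst, the gene of the interneuron peptide somatostatin, was not called (log2 fold change -0.25, DESeq2 adjusted p = 0.185), and neither was Npy, neuropeptide Y (-0.19, DESeq2 adjusted p = 0.56), both named after their values were seen. Counts of Penk and Grp may include genes annotated on the opposite strand.

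CBP is recruited by CREB, which binds the palindrome TGACGTCA and the shorter TGACG. The 4 promoters shown were picked because they hold TGACG, so its presence in them is no finding. Sequences are from RefSeq, build GRCm38.p6, read 5′ to 3′ on the strand of the gene, and cover the 250 bases before the annotated start. Capitals mark TGACG or its reverse complement CGTCA. The window of Rgs4 is chr1:169747643-169747892 on the minus strand. That of Bdnf is chr2:109692186-109692435 on the plus strand and precedes an internal start within the gene. Cck has chr9:121495695-121495944 on the minus strand. Pcsk1 has chr13:75089607-75089856 on the plus strand.
Rgs4: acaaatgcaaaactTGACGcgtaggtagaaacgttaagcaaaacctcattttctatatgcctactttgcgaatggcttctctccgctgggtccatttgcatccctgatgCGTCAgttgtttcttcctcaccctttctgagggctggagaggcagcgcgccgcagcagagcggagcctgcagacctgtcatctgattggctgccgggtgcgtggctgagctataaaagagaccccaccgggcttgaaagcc
Bdnf: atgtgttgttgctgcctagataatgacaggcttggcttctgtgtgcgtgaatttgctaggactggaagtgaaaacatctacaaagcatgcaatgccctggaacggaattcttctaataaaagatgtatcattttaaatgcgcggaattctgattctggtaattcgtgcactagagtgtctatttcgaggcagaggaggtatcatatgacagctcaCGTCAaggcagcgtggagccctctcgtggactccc
Cck: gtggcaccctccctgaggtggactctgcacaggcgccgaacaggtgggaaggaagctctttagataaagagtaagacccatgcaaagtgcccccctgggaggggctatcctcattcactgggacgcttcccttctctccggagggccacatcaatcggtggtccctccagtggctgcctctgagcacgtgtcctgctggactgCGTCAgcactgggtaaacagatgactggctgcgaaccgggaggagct
Pcsk1: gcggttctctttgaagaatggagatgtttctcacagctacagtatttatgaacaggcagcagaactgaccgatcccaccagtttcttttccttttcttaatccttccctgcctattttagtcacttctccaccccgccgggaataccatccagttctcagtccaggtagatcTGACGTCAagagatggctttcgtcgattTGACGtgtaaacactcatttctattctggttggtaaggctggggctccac
Pcsk1 alone of these 4 windows held the full palindrome. Of 11 called members of either list that the text could name by rule, 7 had a promoter entry and 5 of those held TGACG on either strand within 300 bases (250 before and 50 after the start). Over all tested genes with an entry, 3381 of 9303 promoters held TGACG (36.3%), against 149 of 492 for genes called lower (30.3%) and 46 of 141 for genes called higher (32.6%). The palindrome TGACGTCA, which contains TGACG, was found in 348 of the 9303 (3.74%), in 20 of the 492 (4.07%) and in 6 of the 141 (4.26%). The variant TGACGCAA, which also contains TGACG, was found in 1.01%, 0.407% and 0.709%, all on either strand. A match of letters is a description of the window only.

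Immediate early genes, the transcription factors and signalling proteins that respond fastest to activity, were measured here without an acute dose of PTZ. Of 30 listed genes, 20 were tested, 8 were called lower (40.0%) and 0 higher, with a median log2 fold change of -0.32. Nr4a2, an orphan nuclear receptor, had 476, 504 and 456 normalized counts in controls and 304, 341 and 304 in CBP-ifKOs (log2 fold change -0.59, SE 0.11, DESeq2 adjusted p = 7.05e-06). Jun, a subunit of AP-1, had 607, 521 and 602 and 439.5, 474 and 401 (log2 fold change -0.40, SE 0.11, DESeq2 adjusted p = 0.00568). The circadian gene Per1 had 462, 447 and 478 and 392.03, 269 and 339.9 (log2 fold change -0.48, SE 0.12, DESeq2 adjusted p = 0.00523). These 3 did not overlap between groups. Also called lower were Ier5, Nr4a1, Fosl2, Dusp1 and Egr3, with log2 fold changes between -0.72 and -0.38. The best known members were not called. Fos had 23.7, 31.6 and 24.8 normalized counts in controls and 13.4, 13.4 and 15.8 in CBP-ifKOs, a difference with no adjusted p in DESeq2 at this depth (log2 fold change -0.90). Npas4 overlapped between the groups, with 32.5, 66.8 and 46.7 and 42.6, 11.5 and 29.96, and so did Arc, with 669, 684 and 663 and 723, 561 and 499.9 (log2 fold change -0.18, SE 0.12, DESeq2 adjusted p = 0.435). Several calls in this list depended on single libraries. With both choroid-rich libraries left out 0 of the members were called by DESeq2, over all alternatives the number was 0 to 12, and the calls were lost without 1 library for Ier5 (without Control PTZ0 replicate 1 or CBP-ifKO PTZ0 replicate 3, DESeq2 adjusted p = 0.0615 to 0.0745), Per1 (without Control PTZ0 replicates 1 or 3 or CBP-ifKO PTZ0 replicate 2, DESeq2 adjusted p = 0.0724 to 0.0999), Jun (without Control PTZ0 replicates 1 or 3 or CBP-ifKO PTZ0 replicate 3, DESeq2 adjusted p = 0.118 to 0.143), Nr4a1 (without Control PTZ0 replicates 1 or 2 or CBP-ifKO PTZ0 replicate 3, DESeq2 adjusted p = 0.0959 to 0.167) and Fosl2 (without Control PTZ0 replicates 1 or 2 or CBP-ifKO PTZ0 replicate 3, DESeq2 adjusted p = 0.0582 to 0.232).

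Proteins that act between the synaptic membranes were lower in a minority of cases. Of 74 listed synaptic organizers and adhesion proteins, 67 were tested and 13 were called lower (19.4%), 0 higher, with a median log2 fold change of -0.12 and 2 called lower without both choroid-rich libraries. The study had named C1ql2 and Nptx2 from mice of the same line, partly in this series. The share of this list is therefore no independent evidence. After C1ql2 and Nptx2, described above, Igsf21, an adhesion protein of inhibitory synapses, had 138, 145 and 140.0 normalized counts in controls and 68.2, 85.0 and 80.4 in CBP-ifKOs (log2 fold change -0.85, SE 0.19, DESeq2 adjusted p = 0.000588). Lgi3, a secreted relative of the epilepsy gene product LGI1, had 1095, 1112 and 1018 and 794, 809.6 and 675 (log2 fold change -0.50, SE 0.089, DESeq2 adjusted p = 1.85e-06). For the abundant adhesion molecule Cadm1, with 3987, 4026 and 4045 and 3223, 3514 and 3316, the difference was smaller (log2 fold change -0.26, SE 0.057, DESeq2 adjusted p = 0.000314). These 3 genes did not overlap between the groups. Igsf21, Lgi3 and Cadm1 lost their calls with both choroid-rich libraries left out (adjusted p = 0.173, 0.074 and 0.258).

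Of 59 listed genes of Wnt signalling 30 were tested and 5 were called lower (16.7%), 0 higher, with a median of -0.14. Besides Wnt4 these were the ligands Wnt7b, with 387, 339.7 and 383 normalized counts in controls and 245, 258 and 229 in CBP-ifKOs (log2 fold change -0.61, SE 0.12, DESeq2 adjusted p = 6.58e-05), and Wnt9a, with 113, 159 and 98.1 and 45.0, 67.8 and 64.7 (log2 fold change -1.04, SE 0.24, DESeq2 adjusted p = 0.000732). The enhancer of Wnt signalling Rspo3 (-0.62) and the secreted Dickkopf relative Dkk3 (-0.29) completed the calls, and none of the Frizzled and Lrp receptors on this list was among them. Wnt4 and Wnt7b were called without both choroid-rich libraries (adjusted p = 0.0105 and 0.0428), and leaving out 1 library ended the call for Wnt9a (without Control PTZ0 replicate 2, DESeq2 adjusted p = 0.094) and Rspo3 (without Control PTZ0 replicates 1 or 3 or CBP-ifKO PTZ0 replicate 3, DESeq2 adjusted p = 0.0671 to 0.171).

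Among 62 tested guidance molecules 9 were called lower (14.5%) and 0 higher, with a median of -0.11, and 3 were called lower without both choroid-rich libraries. Sema7a, a membrane-anchored semaphorin, had 1278, 1281 and 1252 normalized counts in controls and 912, 911 and 848 in CBP-ifKOs (log2 fold change -0.51, SE 0.074, DESeq2 adjusted p = 1.53e-09). Sema3e, a secreted semaphorin, had 1461, 1484 and 1514 and 1054, 1155 and 995 (log2 fold change -0.48, SE 0.076, DESeq2 adjusted p = 8.2e-08). The ephrin Efnb3 had 1088, 884 and 926 and 664, 715 and 677 (log2 fold change -0.50, SE 0.093, DESeq2 adjusted p = 9.72e-06). These were the 3 called without both choroid-rich libraries, and each was lower in every CBP-ifKO library than in any control. Of 36 tested cadherins and protocadherins 8 were called lower (22.2%) and 0 higher, with a median of -0.15, with the smallest adjusted p for the atypical cadherins Cdh13 (-0.44) and Fat4 (-0.32), and 0 were called by DESeq2 without both choroid-rich libraries. Matrix genes went both ways. Of 72 tested, 6 were called lower (8.33%, against 5.25% of all genes) and 2 higher (1.43% of all genes were), and 3 and 2 without both choroid-rich libraries. Col12a1, a collagen that decorates fibrils, had 289.7, 344 and 307 and 121, 167 and 179.8 (log2 fold change -0.99, SE 0.15, DESeq2 adjusted p = 2.6e-08). The protease Adamts1 had 288, 390.0 and 323 and 162, 184 and 215 (log2 fold change -0.82, SE 0.15, DESeq2 adjusted p = 4.96e-06). The matrix proteins Npnt, with 206, 257 and 252 and 412, 369 and 323 (log2 fold change 0.62, SE 0.14, DESeq2 adjusted p = 0.000243), and Col11a1, with 247, 246 and 234 and 386, 370.4 and 339.9 (log2 fold change 0.59, SE 0.12, DESeq2 adjusted p = 8.63e-05), were higher. Neither lost its call in the 15 alternatives, but neither was called with lane as a term (DESeq2 adjusted p = 0.775 and 0.743).

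Of 39 tested growth factors and receptors 6, Bdnf among them, were called lower (15.4%) and 1 higher, with a median of -0.10, and 3 and 1 without both choroid-rich libraries. Igfbp4, a binding protein of insulin-like growth factors, had 554, 628 and 615 normalized counts in controls and 275, 310.3 and 327 in CBP-ifKOs (log2 fold change -0.97, SE 0.11, DESeq2 adjusted p = 7.87e-16). Its relative Igfbp5 went the other way, with 1411, 1431 and 1396 and 2047, 1748 and 2099.8 (log2 fold change 0.48, SE 0.076, DESeq2 adjusted p = 8.15e-08). Both held their calls in all 15 alternatives and did not overlap between groups. With lane as a term Igfbp4 was called (DESeq2 adjusted p = 0.0183) and Igfbp5 was not (DESeq2 adjusted p = 0.395). In the TGF-beta family 3 of 36 tested were called lower (8.33%, against 5.25% of all genes), and 1 without both choroid-rich libraries. The 3 were the activin receptor Acvr1c (791, 670.0 and 766 against 444, 507 and 423, log2 fold change -0.70, SE 0.10, DESeq2 adjusted p = 3.58e-09), the signal transducer Smad3 (-0.38) and the follistatin relative Fstl1 (-0.28). The call of Fstl1 was lost in 13 of 15 alternatives, among them every leave-one-out fit (without Control PTZ0 replicates 1, 2 or 3 or CBP-ifKO PTZ0 replicates 1, 2 or 3, DESeq2 adjusted p = 0.107 to 0.344).

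**Figure D2:**
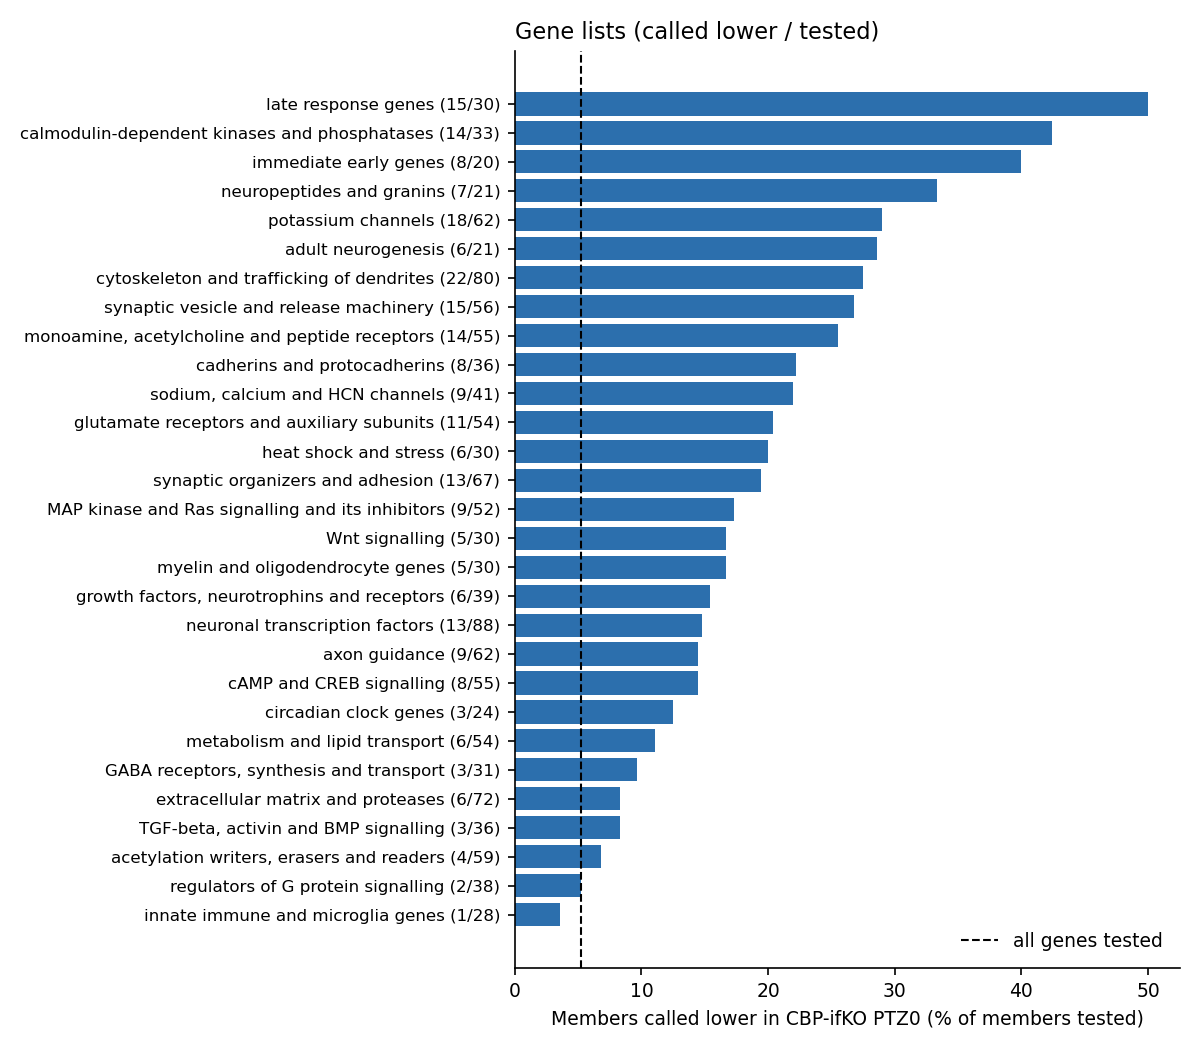
Share of tested members called lower in CBP-ifKO PTZ0 for the 29 gene lists, as a percentage on the x axis, with the number called over the number tested beside each name. The dashed line is the share over all genes tested, 5.25%, and the bars run from 50.0% for late response genes to 3.57% for innate immune and microglia genes.

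Receptors for transmitters and peptides were lower in part. Of 55 tested receptors for monoamines, acetylcholine and peptides 14 were called lower (25.5%) and 0 higher, with a median log2 fold change of -0.27, and 4 were called lower without both choroid-rich libraries. The study had named serotonin and somatostatin receptors from mice of the same line, partly in this series. This share is therefore no independent evidence. Htr2a, a serotonin receptor coupled to Gq, had 354, 362 and 328 normalized counts in controls and 205, 219.6 and 209.7 in CBP-ifKOs (log2 fold change -0.72, SE 0.12, DESeq2 adjusted p = 1.4e-06). Sstr3, the somatostatin receptor of neuronal cilia, had 417, 453 and 458 and 241, 319.8 and 268 (log2 fold change -0.67, SE 0.12, DESeq2 adjusted p = 5.02e-06). Npy1r, a receptor of neuropeptide Y, had 407, 452 and 445 and 304, 303 and 308 (log2 fold change -0.51, SE 0.11, DESeq2 adjusted p = 0.000266). All 3 were lower in every CBP-ifKO library, and Npy1r lost its call without both choroid-rich libraries (adjusted p = 0.184). Htr4, a serotonin receptor coupled to Gs, was at 387, 394 and 458 and 292, 311 and 259 (log2 fold change -0.53, SE 0.12, DESeq2 adjusted p = 0.000883), and its call was lost in leave-one-out fits (without Control PTZ0 replicate 3 or CBP-ifKO PTZ0 replicate 3, DESeq2 adjusted p = 0.0539 to 0.0753).

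Glutamate receptors, their auxiliary subunits and scaffolds were lower by small amounts in 11 of 54 tested genes (20.4%), with 0 higher and a median of -0.11, and 0 were called by DESeq2 without both choroid-rich libraries. Grm3, a metabotropic receptor that inhibits adenylyl cyclase, had 1164, 1204 and 1156 normalized counts in controls and 840.1, 996 and 841 in CBP-ifKOs (log2 fold change -0.40, SE 0.085, DESeq2 adjusted p = 0.000213). Dlg4, which encodes the scaffold PSD-95, had 4518, 4231 and 4348 and 3926, 3548 and 3433 (log2 fold change -0.27, SE 0.063, DESeq2 adjusted p = 0.00124). The AMPA receptor subunit Gria3 had 4059, 4193 and 4176 and 3603, 3615 and 3339 (log2 fold change -0.24, SE 0.057, DESeq2 adjusted p = 0.00177). The separation of groups was complete but narrow, and leaving out 1 library ended the call for Dlg4 (without Control PTZ0 replicate 1 or CBP-ifKO PTZ0 replicate 3, DESeq2 adjusted p = 0.0503 to 0.0641) and Gria3 (without Control PTZ0 replicates 2 or 3 or CBP-ifKO PTZ0 replicate 3, DESeq2 adjusted p = 0.0511 to 0.0667). On the inhibitory side, where PTZ acts, 3 of 31 tested genes were called lower (9.68%) and 0 higher, and 2 were lower without both choroid-rich libraries. Gabra5, the subunit of extrasynaptic GABA-A receptors of pyramidal cells, had 2564, 2560.4 and 2679 and 1651, 1922 and 1612 (log2 fold change -0.59, SE 0.074, DESeq2 adjusted p = 1.03e-12) and kept its call in all 15 alternatives, though not with lane as a term (DESeq2 adjusted p = 0.164). The subunit Gabra4 (-0.25) and the GABA-B receptor partner Kctd16 (-0.25) had smaller differences, and leaving out 1 library ended the call for Gabra4 (without Control PTZ0 replicates 1 or 3 or CBP-ifKO PTZ0 replicate 3, DESeq2 adjusted p = 0.18 to 0.239) and Kctd16 (without Control PTZ0 replicates 1, 2 or 3 or CBP-ifKO PTZ0 replicates 2 or 3, DESeq2 adjusted p = 0.127 to 0.287).

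Potassium channels, which set resting potential and end action potentials, were the ion channel group with the most calls. Of 62 tested, 18 were called lower (29%) and 0 higher, with a median of -0.17, and 4 were called lower without both choroid-rich libraries. Kcnip3, a calcium-binding partner of A-type channels, had 848, 849 and 790.3 normalized counts in controls and 465, 447 and 459 in CBP-ifKOs (log2 fold change -0.86, SE 0.089, DESeq2 adjusted p = 9.77e-19). The inward rectifier Kcnj4 had 689, 635 and 643 and 404, 433 and 367 (log2 fold change -0.71, SE 0.10, DESeq2 adjusted p = 8.04e-10). Its relative Kcnj2 had 306, 363 and 312 and 157, 203 and 199 (log2 fold change -0.80, SE 0.14, DESeq2 adjusted p = 1.74e-06). These inward rectifiers pass current near the resting potential. Kcnh3, an ether-a-go-go type channel of forebrain neurons, had 889, 834 and 799 and 594, 558 and 475 (log2 fold change -0.64, SE 0.098, DESeq2 adjusted p = 2.11e-08). These were the 4 called without both choroid-rich libraries, and each was lower in all 3 CBP-ifKO libraries than in any control. The calcium-activated channel Kcnma1 was abundant and changed little, with 6109, 6325 and 6479 and 5347, 5333 and 5069 (log2 fold change -0.26, SE 0.053, DESeq2 adjusted p = 6.88e-05), and lost its call without both choroid-rich libraries (adjusted p = 0.239).

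Among 41 tested sodium, calcium, HCN and TRPC channels 9 were called lower (22%) and 1 higher, with a median of -0.07, and 1 was called lower and 0 higher by DESeq2 without both choroid-rich libraries. Trpc6, a receptor-operated cation channel of granule cells, had 1036, 895 and 926 normalized counts in controls and 561, 599 and 499 in CBP-ifKOs (log2 fold change -0.79, SE 0.096, DESeq2 adjusted p = 1.59e-13). Cacna1g, a T-type calcium channel, had 579, 572 and 538 and 409, 393 and 405 (log2 fold change -0.48, SE 0.098, DESeq2 adjusted p = 6.98e-05). Scn4b, a beta subunit of sodium channels, had 202, 232 and 177 and 127, 111 and 130.1 (log2 fold change -0.73, SE 0.17, DESeq2 adjusted p = 0.000697). Of these, Trpc6 kept its call without both choroid-rich libraries, while the other two had adjusted p = 0.102 and 0.243 there. Scn4b also lost its call without Control PTZ0 replicate 2 (adjusted p = 0.0602). The sodium channel Scn9a was the one called higher (log2 fold change 0.57, SE 0.17, DESeq2 adjusted p = 0.0164), and its call was lost in leave-one-out fits (without Control PTZ0 replicates 1 or 2 or CBP-ifKO PTZ0 replicates 2 or 3, DESeq2 adjusted p = 0.116 to 0.248).

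Calmodulin, its kinases and their inhibitors transmit calcium signals in dendrites and to the nucleus. Of 33 tested, 14 were called lower (42.4%) and 1 higher, with a median log2 fold change of -0.18, and 8 were called lower and 0 higher by DESeq2 without both choroid-rich libraries. The study had named calmodulin kinases from mice of the same line, partly in this series, so this share is no independent evidence either. Both kinases that activate other calmodulin kinases were lower. Camkk2 had 1534, 1572 and 1613 normalized counts in controls and 1001, 999.6 and 963 in CBP-ifKOs (log2 fold change -0.67, SE 0.070, DESeq2 adjusted p = 1.34e-18). Camkk1 had 2181, 2107 and 2161 and 1573, 1563 and 1480.0 (log2 fold change -0.48, SE 0.064, DESeq2 adjusted p = 1.82e-11). Their substrate Camk1g had 275, 265 and 267 and 145, 126 and 129 (log2 fold change -1.02, SE 0.15, DESeq2 adjusted p = 1.05e-09), a decrease of 2.02-fold. The groups were far apart relative to their spread in all 3. The inhibitor Camk2n1 had 4794, 4717 and 4799.9 and 3437, 3489 and 3097 (log2 fold change -0.51, SE 0.061, DESeq2 adjusted p = 2.24e-14). The catalytically inactive Camkv had 7589.5, 7206 and 7334 and 5403, 5549 and 4793 (log2 fold change -0.49, SE 0.063, DESeq2 adjusted p = 2.49e-12). All 3 calmodulin genes, which encode the same protein, were called lower, Calm3 with 15954, 16188 and 15296 and 12327, 13206 and 11262 (log2 fold change -0.37, SE 0.061, DESeq2 adjusted p = 4.72e-07). Camk2n2, the other inhibitor of CaMKII, was higher (195, 152 and 160.0 against 251, 259.7 and 237, log2 fold change 0.55, SE 0.15, DESeq2 adjusted p = 0.00607), and its call was lost in leave-one-out fits (without Control PTZ0 replicates 2 or 3 or CBP-ifKO PTZ0 replicate 2, DESeq2 adjusted p = 0.0537 to 0.123).

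Second messengers and kinases carry signals from surface receptors to the nucleus. Of 55 tested genes of cAMP and CREB signalling 8 were called lower (14.5%) and 0 higher, 1 was called lower without both choroid-rich libraries, and the number over all alternatives was 0 to 7. The 8 included the adenylyl cyclase Adcy5 (1459.8, 1212 and 1317 against 1085, 1006 and 999, log2 fold change -0.37, SE 0.083, DESeq2 adjusted p = 0.000418) and the calmodulin-dependent phosphodiesterases Pde1b (-0.29) and Pde1a (-0.23). Leaving out 1 library ended the call for Adcy5 (without Control PTZ0 replicate 1, DESeq2 adjusted p = 0.0582), Pde1b (without Control PTZ0 replicates 1 or 2 or CBP-ifKO PTZ0 replicate 3, DESeq2 adjusted p = 0.0641 to 0.113) and Pde1a (without Control PTZ0 replicates 1 or 3 or CBP-ifKO PTZ0 replicate 3, DESeq2 adjusted p = 0.109 to 0.157). Of 52 tested genes of MAP kinase and Ras signalling 9 were called lower (17.3%), 0 higher and 0 lower by DESeq2 without both choroid-rich libraries. Map2k1, the kinase MEK1, had 3713, 3545 and 3465 and 2969, 2892 and 2727 (log2 fold change -0.32, SE 0.060, DESeq2 adjusted p = 9.97e-06). The Ras GTPase activator Rasal1 had 1066, 951 and 881 and 739, 726 and 537 (log2 fold change -0.54, SE 0.11, DESeq2 adjusted p = 0.000138). Feedback phosphatases of the pathway, Dusp4 (-0.63) and Dusp14 (-0.47), and the inhibitor Spry2 (-0.40) were also called lower, with the calls ended by leaving out 1 library for Dusp4 (without Control PTZ0 replicate 1 or CBP-ifKO PTZ0 replicate 3, DESeq2 adjusted p = 0.112 to 0.166), Dusp14 (without Control PTZ0 replicates 1, 2 or 3 or CBP-ifKO PTZ0 replicates 1 or 3, DESeq2 adjusted p = 0.0663 to 0.297) and Spry2 (without Control PTZ0 replicates 1, 2 or 3 or CBP-ifKO PTZ0 replicate 3, DESeq2 adjusted p = 0.0728 to 0.284). Among 38 tested G protein subunits and regulators the share was that of all genes, with Rgs14 and Rgs4 called lower (5.26%), also without both choroid-rich libraries, and the G protein subunit Gng4 called higher. Gng4 lost its call in 11 of 15 alternatives, among them that without both choroid-rich libraries (DESeq2 adjusted p = 0.654).

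The machinery of transmitter release was lower in 15 of 56 tested genes (26.8%), with 0 higher, a median of -0.10 and 2 called without both choroid-rich libraries. Those 2 were Otof and Sv2c, a vesicle glycoprotein, which had 428, 337 and 399 normalized counts in controls and 251, 186 and 219 in CBP-ifKOs (log2 fold change -0.84, SE 0.14, DESeq2 adjusted p = 2.19e-07). Otof was known from earlier results of these data when the list was made, so the share is no independent evidence. Unc13c, a priming factor of granule cells, had 468, 603 and 468 and 319, 337 and 379 (log2 fold change -0.56, SE 0.12, DESeq2 adjusted p = 0.000286). Abundant general components had smaller differences, among them the complexin Cplx2 with 12062, 11308 and 11635 and 10377, 9976 and 8517 (log2 fold change -0.28, SE 0.068, DESeq2 adjusted p = 0.00199), and the synapsin Syn2 with 8452, 7556 and 8002 and 6909, 6909 and 6743 (log2 fold change -0.22, SE 0.056, DESeq2 adjusted p = 0.00235). Both of these lost their calls without Control PTZ0 replicate 1 (adjusted p = 0.0664 and 0.111). Of 80 tested genes of the cytoskeleton and of trafficking in dendrites 22 were called lower (27.5%) and 0 higher, with a median of -0.11, and 4 were called without both choroid-rich libraries. The neurofilament Nefl had 5190.5, 4946 and 5352 and 3806, 4352 and 3680.0 (log2 fold change -0.39, SE 0.069, DESeq2 adjusted p = 2.07e-06). The motor Myo5b, which carries recycling endosomes, had 1814, 1929 and 1983 and 1473, 1463 and 1465 (log2 fold change -0.38, SE 0.066, DESeq2 adjusted p = 1.58e-06). The microtubule protein Map4 had 6858, 7161 and 6817 and 5694, 5527 and 5220.0 (log2 fold change -0.34, SE 0.055, DESeq2 adjusted p = 9.11e-08). For these 3 genes every CBP-ifKO library was below every control.

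Transcription factors of forebrain neurons were called lower more often than higher, as were all genes tested (5.25% lower and 1.43% higher). Of 88 tested, 13 were called lower (14.8%) and 3 higher, of which Esr1 reports the transgene. Without both choroid-rich libraries 1 was called lower and 1, Esr1, higher. Tshz2, a teashirt zinc finger factor, had 1039, 1313 and 969 normalized counts in controls and 642, 751 and 759 in CBP-ifKOs (log2 fold change -0.62, SE 0.11, DESeq2 adjusted p = 1.13e-06). The D-box factor Dbp had 263, 268 and 259 and 186, 157 and 172 (log2 fold change -0.62, SE 0.14, DESeq2 adjusted p = 0.000482), and its relative Hlf a log2 fold change of -0.31. Prox1, which defines granule cells, had 1312, 1291 and 1498 and 1829.9, 1655 and 1708 (log2 fold change 0.34, SE 0.076, DESeq2 adjusted p = 0.000513) and was higher in each CBP-ifKO library, as was Neurod2 (0.30). Dbp, Hlf and Per1 were the 3 of 24 tested clock genes called lower (12.5%), 0 were called by DESeq2 without both choroid-rich libraries, and the hour of dissection is not given per library, so its part was not tested. Of 59 tested genes that write, remove or read acetyl marks 4 were called lower (6.78%, near the 5.25% of all genes) and 2 higher, with a median of 0.04, and 1 and 0 by DESeq2 without both choroid-rich libraries. Besides Crebbp these were the deacetylases Hdac9 (854, 910.1 and 802 against 572, 655 and 661, log2 fold change -0.44, SE 0.091, DESeq2 adjusted p = 0.000131) and Hdac5 (-0.33) and the chromatin reader Dpf1 (-0.37), and the 2 higher were Ep300 and the reader Yeats2 (0.24). Leaving out 1 library ended the call for Neurod2 (without Control PTZ0 replicates 1 or 2 or CBP-ifKO PTZ0 replicate 2, DESeq2 adjusted p = 0.13 to 0.169), Hlf (without Control PTZ0 replicate 2, DESeq2 adjusted p = 0.0643), Hdac5 (without Control PTZ0 replicate 1 or CBP-ifKO PTZ0 replicate 3, DESeq2 adjusted p = 0.142 to 0.176), Dpf1 (without Control PTZ0 replicates 1, 2 or 3 or CBP-ifKO PTZ0 replicates 1 or 3, DESeq2 adjusted p = 0.0601 to 0.329) and Yeats2 (without Control PTZ0 replicates 1, 2 or 3 or CBP-ifKO PTZ0 replicates 1, 2 or 3, DESeq2 adjusted p = 0.0893 to 0.3).

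Of 30 tested stress genes 6 were called lower (20.0%), and 1 without both choroid-rich libraries. The 6 included Sgk1, a kinase induced by glucocorticoids (1031, 1018 and 1219.7 against 811, 687 and 841, log2 fold change -0.48, SE 0.097, DESeq2 adjusted p = 4.99e-05), and the metallothioneins Mt1 (-0.32), Mt2 (-0.49) and Mt3 (-0.28). The chaperone of the endoplasmic reticulum Hspa5 was higher, with 2164, 2218 and 2518 and 2661, 3186 and 2933 (log2 fold change 0.35, SE 0.078, DESeq2 adjusted p = 0.000466), and lost its call without both choroid-rich libraries (DESeq2 adjusted p = 0.231). Of 54 tested genes of metabolism and lipid transport 6 were called lower (11.1%), and 0 by DESeq2 without both choroid-rich libraries. The 6 included glutamine synthetase Glul (-0.22) and the apolipoprotein Apoe (-0.22). Leaving out 1 library ended the call for Mt1 (without Control PTZ0 replicate 1 or CBP-ifKO PTZ0 replicate 3, DESeq2 adjusted p = 0.0983 to 0.186), Mt2 (without Control PTZ0 replicates 1 or 3 or CBP-ifKO PTZ0 replicates 1 or 3, DESeq2 adjusted p = 0.0596 to 0.318), Mt3 (without Control PTZ0 replicates 1 or 2 or CBP-ifKO PTZ0 replicate 3, DESeq2 adjusted p = 0.17 to 0.267), Glul (without Control PTZ0 replicate 2 or CBP-ifKO PTZ0 replicate 3, DESeq2 adjusted p = 0.0504 to 0.0724) and Apoe (without Control PTZ0 replicates 1, 2 or 3 or CBP-ifKO PTZ0 replicates 1 or 3, DESeq2 adjusted p = 0.119 to 0.205). Of 30 tested myelin genes 5 were called lower (16.7%), Cnp, Mal, Cldn11, Trf and the precursor receptor Pdgfra, with log2 fold changes between -0.30 and -0.21. The summed level of the 10 oligodendrocyte markers was 39256 to 41964 normalized counts in controls and 31483 to 40033 in CBP-ifKOs, so it moved with these genes, and its part in them was not tested. None of the 5 was called without both choroid-rich libraries. Innate immune and microglial genes showed 1 of 28 called lower (3.57%), Serpina3n, also without both choroid-rich libraries, and 0 higher. In the list of adult neurogenesis 6 of 21 tested were lower (28.6%) and 1 higher, and 1 was lower and 0 higher by DESeq2 without both choroid-rich libraries. The smallest adjusted p among the 6 belonged to Dpysl3, a guidance effector of young neurons (909, 934 and 942 against 659.9, 647 and 632, log2 fold change -0.52, SE 0.081, DESeq2 adjusted p = 2.76e-08), and Calb2, calretinin (322, 348 and 313 against 184, 228 and 186, log2 fold change -0.71, SE 0.14, DESeq2 adjusted p = 1.25e-05), while Prox1 was the gene called higher.

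Of the 182 genes that were higher without CBP, few were members of the lists. After Esr1 the largest increase was that of Frem3, an extracellular matrix protein, with 36.9, 18.7 and 21.9 normalized counts in controls and 86.4, 68.7 and 101 in CBP-ifKOs (log2 fold change 1.71, SE 0.30, DESeq2 adjusted p = 2.74e-06). Adi1, an enzyme of methionine salvage, had 124, 130.0 and 132 and 225, 258 and 229 (log2 fold change 0.88, SE 0.15, DESeq2 adjusted p = 1.08e-06). Lct, lactase, which is expressed in granule cells, had 550.4, 479 and 529 and 956, 912 and 816 (log2 fold change 0.78, SE 0.095, DESeq2 adjusted p = 1.59e-13). The libraries of the groups lay far apart for Adi1 and Lct, which kept their calls in all 15 alternatives but were not called with lane as a term (DESeq2 adjusted p = 0.0914 and 0.433). Frem3 and Ldhd lost theirs without both choroid-rich libraries (adjusted p = 0.072 and 0.0596), where their log2 fold changes were 1.40 and 1.17. Ldhd, D-lactate dehydrogenase, had 48.3, 46.9 and 40.9 and 92.5, 108 and 127 (log2 fold change 1.28, SE 0.24, DESeq2 adjusted p = 9.67e-06). The thrombin receptor F2r had 59.7, 66.8 and 61.9 and 105, 101 and 116 (log2 fold change 0.78, SE 0.22, DESeq2 adjusted p = 0.00871). The other genes named by the rule were Spata1, Zfp92, Nudt17, Mpp7, Pola2, Zfp618, Gm43166, Gm43165 and Gm42822, with log2 fold changes of 0.69 to 0.97. Their calls were fragile, and leaving out 1 library ended them for F2r (without Control PTZ0 replicates 1, 2 or 3 or CBP-ifKO PTZ0 replicate 3, DESeq2 adjusted p = 0.0527 to 0.147), Spata1 (without Control PTZ0 replicate 3 or CBP-ifKO PTZ0 replicate 3, DESeq2 adjusted p = 0.0599 to 0.0715), Zfp92 (without Control PTZ0 replicates 1, 2 or 3 or CBP-ifKO PTZ0 replicate 3, DESeq2 adjusted p = 0.0693 to 0.157), Nudt17 (without Control PTZ0 replicate 1 or CBP-ifKO PTZ0 replicate 3, DESeq2 adjusted p = 0.0663 to 0.0707), Mpp7 (without Control PTZ0 replicates 1 or 3 or CBP-ifKO PTZ0 replicate 3, DESeq2 adjusted p = 0.107 to 0.448), Pola2 (without Control PTZ0 replicates 1, 2 or 3 or CBP-ifKO PTZ0 replicates 1 or 3, DESeq2 adjusted p = 0.0922 to 0.227), Zfp618 (without Control PTZ0 replicates 1, 2 or 3 or CBP-ifKO PTZ0 replicates 1 or 3, DESeq2 adjusted p = 0.0531 to 0.3), Gm43166 (without Control PTZ0 replicates 1, 2 or 3 or CBP-ifKO PTZ0 replicates 1 or 3, DESeq2 adjusted p = 0.126 to 0.285), Gm43165 (without Control PTZ0 replicates 1 or 2 or CBP-ifKO PTZ0 replicates 1 or 3, DESeq2 adjusted p = 0.0629 to 0.221) and Gm42822 (without Control PTZ0 replicates 1 or 2 or CBP-ifKO PTZ0 replicates 1 or 3, DESeq2 adjusted p = 0.102 to 0.277). Gm43166 and Gm43165 lie within Galnt17 and Gm42822 within Ppp3ca, on the same strand as these host genes, and Ldhd, Spata1, Nudt17, Zfp92 and Mpp7 overlap genes on the opposite strand, so their counts are uncertain.

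The same genotype comparison was made in the Sal groups, mice that had not been kindled and that share no library with PTZ0. There 266 of 15004 tested genes were called lower (1.77%) and 40 higher (0.267%). Of the 670 genes called lower in PTZ0, 669 were also below 0 in Sal, with a median log2 fold change of -0.30, and 232 were called lower there, which is 34.6% of the PTZ0 list and 87.2% of the Sal list. Of the 182 called higher, 181 were above 0 in Sal with a median of 0.27, and 29 were called higher there, which is 15.9% of the PTZ0 list and 72.5% of the Sal list. Over all genes tested in PTZ0 the median in Sal was -0.00604 and 51.5% were below 0. The exception among the higher genes, named after its values were seen, was Xaf1, an interferon-induced gene, with log2 fold changes of 0.56 in PTZ0 and -0.09 in Sal. Sal controls were run on lane 3 and Sal CBP-ifKOs on lane 4, so genotype and lane cannot be told apart in Sal either.

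Members of the main groups held similar values in Sal and PTZ0. C1ql2 had log2 fold changes of -1.73 in PTZ0 and -1.52 in Sal, and Otof had -1.68 and -1.90. Bdnf had -0.86 and -0.73, Penk -1.29 and -1.24, Camkk2 -0.67 and -0.62, and Gabra5 had -0.59 and -0.53. Others had a smaller value in Sal. Tshz2 was at -0.62 and -0.11, Unc13c at -0.56 and -0.12, Ldhd at 1.28 and 0.38, and Vgf at -0.62 and -0.36. The late response list had 9 of its members called lower in Sal with a median of -0.27, the neuropeptide list 5 with -0.12 and the calmodulin list 10 with -0.13.

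Whether the genotype difference itself changed with kindling was tested by the interaction term over the 12 libraries of Sal and PTZ0. Both control groups were run on lane 3, CBP-ifKO Sal on lane 4 and CBP-ifKO PTZ0 on lane 5, so this term and a change between lanes 4 and 5 cannot be told apart, for Tshz2 as for any other gene. DESeq2 gave 38110 genes an adjusted p and called none (0%), with 141 genes at an unadjusted p under 0.05 and a lowest adjusted p of 1, and edgeR called 47. Among these 47 were 13 of the 14 choroid plexus markers, and 1 gene that was also called in PTZ0, Tshz2 (edgeR coefficient -0.48, adjusted p = 0.00683, DESeq2 coefficient -0.52 with unadjusted p = 0.0665). The median interaction coefficient was -0.03 over the genes called lower in PTZ0 and 0.07 over those called higher. The 141 genes are far fewer than the share of 0.05 that evenly spread p-values would give. The DESeq2 interaction test was thus conservative here, and its lack of calls says little about a change with kindling. The larger count of calls in PTZ0 than in Sal is not shown by these values to be a larger effect of genotype.

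**Figure D3:**
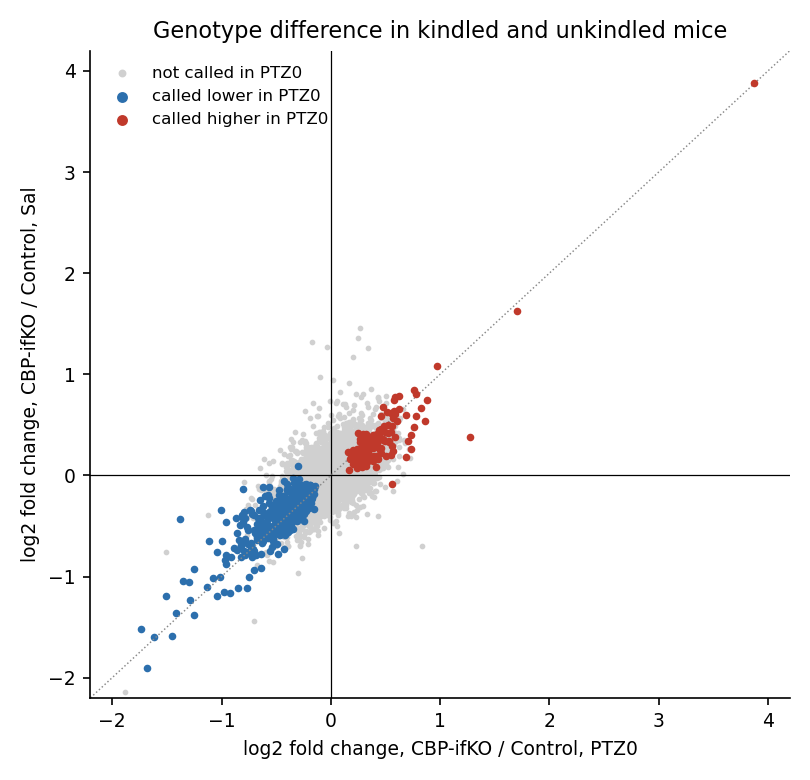
Log2 fold change between CBP-ifKO and control for each gene in PTZ0 on the x axis and in Sal on the y axis, over the 12752 genes tested in PTZ0. Blue points were called lower in PTZ0, red points higher and grey points neither, the dotted line marks equal values, and 669 of the 670 blue genes and 181 of the 182 red genes have the same sign in both.

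The PTZ45 groups, kindled mice that received PTZ on the last day, held 2 control libraries, both on lane 4, and 3 CBP-ifKO libraries, all on lane 5, so genotype and lane cannot be told apart there either. In PTZ45, 656 of the 670 lower genes and 167 of the 182 higher genes had the same sign, with medians of -0.32 and 0.19. Over all genes tested in PTZ0 the median in PTZ45 was 0.00158 and 49.7% were below 0. The CBP-ifKO libraries of PTZ0 were on lane 5 too, and the part of lane in this agreement was not tested. The immediate early genes had a median of -1.39 there against -0.32 in PTZ0, and the late response genes -0.58 against -0.28. Fos was at -3.53 and -0.90, Nr4a1 at -2.50 and -0.57, and Rgs4 at -1.29 and -0.73. The neuropeptide list (-0.22 in PTZ45 and -0.25 in PTZ0) and the calmodulin list (both -0.18) had close medians in both. These values stand side by side and the difference between PTZ45 and PTZ0 was not tested here. Across the 13025 genes whose mean reached 50 normalized counts, the Spearman correlation of the PTZ0 fold changes was 0.70 with Sal and 0.54 with PTZ45, as a description over genes, which are not independent.

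Lane was entered with treatment in 1 fit of genotype over all 17 libraries, where the lanes are shared in part between the groups. Only lane 4 held both genotypes, as CBP-ifKO Sal and Control PTZ45. The genotype term assumes the same difference in Sal, PTZ0 and PTZ45. A difference that changes with PTZ, as the values of Rgs4 above may, enters that term. Calls and signs in this fit are therefore no direct reading of PTZ0. In that fit 132 of 15643 genes tested were called lower (0.844%) and 3 higher (0.0192%). Over all genes tested in PTZ0, 52.1% were below 0 there. Of the 670 genes lower in PTZ0, 621 kept their direction, 49 turned and 70 were called, with a median of -0.28. Of the 182 higher genes, 135 kept their direction, 47 turned and 3 were called, with a median of 0.11. The same fit without lane called 653 and 164 of them. Rgs4 (-1.22, adjusted p = 4.67e-11), C1ql2 (-1.51, adjusted p = 0.000571), Penk (-1.54, adjusted p = 0.000342), Bdnf (-0.75, adjusted p = 0.0016) and Camkk2 (-0.68, adjusted p = 0.000121) were called with lane as a term, by DESeq2 in each case. Unc13c, with 0.11, Dbp, with 0.12, Ldhd, with -0.12, and the myelin genes Cnp, Mal, Cldn11 and Trf, with 0.09 to 0.18, changed sign. How far lane accounts for the remaining difference was not tested beyond this fit, since no lane held both genotypes of a treatment.

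Base composition moved with the direction of change. The median GC content of exons was 51.6% for the genes called lower, 45.6% for those called higher and 48.5% over the 13025 genes whose mean reached 50 normalized counts. Across these genes the fold change had a Spearman correlation of -0.19 with GC content, as a description. After a correction of each library for its trend over GC content, 542 of the 670 and 144 of the 182 genes were still called.

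Marker genes of hippocampal cell types were examined in each library. The 10 CA1 markers summed to 10306 to 10922 normalized counts in controls and 7814 to 9003 in CBP-ifKOs, and 5 of the 10 were called lower (Wfs1, Mpped1, Man1a, Fibcd1 and Spink8, with 2 called without both choroid-rich libraries). For dentate granule cells the sums were 8351 to 8664 and 8135 to 9136, with Lct and Prox1 called higher and Pdzd2 and Tdo2 lower. In CA3 and CA2 3 of 9 tested markers were called lower (Rgs14, Cpne4 and Ociad2), with sums of 10065 to 10716 and 9191 to 10356. The pan-excitatory markers summed to 43249 to 45520 in controls and 42857 to 52400 in CBP-ifKOs, where the sums of the groups overlap. Sums overlapped as well for interneurons, astrocytes, microglia, endothelial cells and thalamus, with 1, 1, 0, 0 and 0 markers called lower. Precursors of oligodendrocytes were at 2416 to 2519 and 1891 to 2127 with 1 of 7 tested called. Of the striatal markers 2 of 4 tested were called lower, and the 8 summed to 587 to 682 in controls and 497 to 644 in CBP-ifKOs. Of the 14 choroid plexus markers only 2 were tested in PTZ0, and neither was called. The part of cell composition in the lower level of CA1 markers was not tested.

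**Figure D4:**
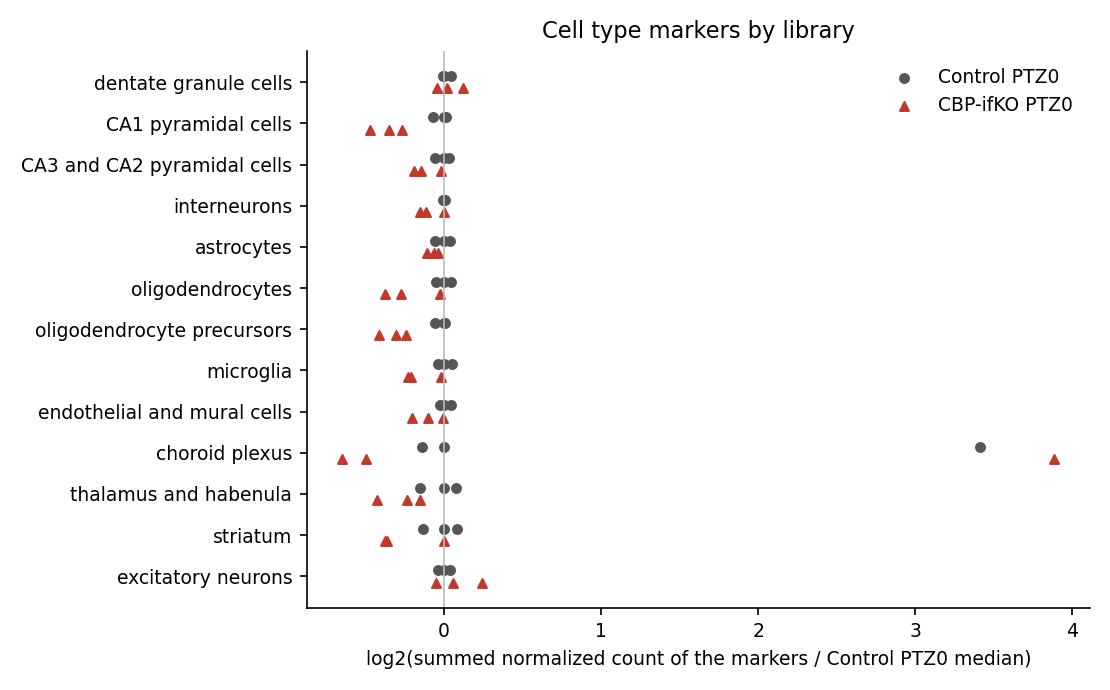
Summed normalized counts of the markers of each cell type in every library, as log2 of the ratio to the Control PTZ0 median on the x axis, with 1 cell type per row. Circles are Control PTZ0 and triangles CBP-ifKO PTZ0 libraries. In the choroid plexus row 1 library of each group lies far to the right, at 41505 and 57622 counts, and in the CA1 row all triangles, from 7814 to 9003, lie left of all circles.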

How the data were processed

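Hippocampal RNA of 17 mice, 1 per library, was sequenced as single reads of 50 bases. The authors trimmed reads with Trim Galore 0.6.4, aligned them with STAR 2.6.1 to GRCm38, kept mapping quality above 10 and deposited raw counts per gene over exons (Rsubread), with strand use not stated. Of the 18 deposited count columns 1 matched no sample label here and was not used. Gene positions are from GENCODE M21 (GRCm38). The counts were tested with DESeq2 1.42.0 (R 4.3.3, Wald test, Benjamini-Hochberg, independent filtering, adjusted p under 0.05) between the 3 libraries of each PTZ0 group, with edgeR 4.0.16 and 14 further alternatives (sva 3.50.0, loess over GC content with a span of 0.5). The tests were tried on simulated counts. Group labels came from the titles. Named genes were Crebbp, Ep300, Esr1, Arsi, Bdnf, Nptx2, Penk, Pdyn, Fos, Npas4 and Arc, up to 15 called genes per direction of largest fold change (groups not overlapping, mean normalized count of 50 or more), and up to 6 per list and direction of smallest adjusted p. Members and lists were chosen with earlier results of these data known. Values of 2 called genes are not reported here.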

Additional observations from a re-analysis of the deposited data

How the results depend on the processing

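Of 182 genes called higher and 670 lower in PTZ0, 13 and 109 kept their calls in those of 15 alternatives that gave an adjusted p, and 1 and 38 did so with the lane fit as well. The lane fit assumes the same genotype difference in every treatment. The higher count was 563 with edgeR, 115 with 1 surrogate variable, 57 with the replicate block, 57 with the block and GC correction and 20 with both choroid-rich libraries left out (an alternative added after seeing the data), and 52 to 179 with 1 library left out. The lower count was 353 with the block, 287 with the block and GC correction and 140 with both left out, and 275 to 734 with 1 library left out. Other normalization, filtering, a fit of all 17 libraries and GC correction gave 165 to 244 higher and 525 to 649 lower. For Sal, 40 higher became 302 with edgeR, 127 with all 17 libraries, 19 with a surrogate variable, 10 with the block, 12 with the block and GC correction and 15 to 90 with 1 library left out, and 266 lower became 526, 487, 165, 112, 90 and 112 to 530. The interaction count of 0 became 47 with edgeR. Whether replicate numbers pair the mice was not settled. Same-numbered libraries had correlations of deviations of 0.29, -0.22 and -0.27. The highest correlation, 0.48, joined the choroid-rich libraries of both groups. With 3 libraries per group such values cannot decide about pairing. With lane as a term, signs turned for Ldhd (-0.119), Gm43166 (-0.208), Zfp618 (-0.217), Gm42822 (-0.504), Cacng3 (0.0146), Unc13c (0.11), Dbp (0.118), Yeats2 (-0.0164), Mt3 (0.0844), Clu (0.228), Cnp (0.179), Mal (0.0915), Cldn11 (0.122) and Trf (0.177), and the cause was not tested. Low counts limit Fos and Arsi, which had no adjusted p in DESeq2.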

Other observations

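Some gene families that are not among the lists, chosen after their values were seen, are given with no test. Over all genes tested in PTZ0 5.25% were called lower and 1.43% higher. Genes of neuronal EF-hand calcium binders (the recoverin-related sensors with the Kcnip channel partners, the Necab genes and Caln1) were called lower in 10 of 14 tested, with a median log2 fold change of -0.38 (-0.34 in Sal and -0.31 in PTZ45), and in 6 with both choroid-rich libraries left out. Kcnip2 and Kcnip3 are counted in the potassium channel list too. Among the 10 were Necab3 (-0.89), Kcnip3 (-0.86), Hpcal1 (-0.65), Necab2 (-0.63) and Hpcal4 (-0.54). Small Cajal body RNAs, which guide modification of spliceosomal RNAs, were called lower in 5 of 7 tested, with Scarna2 at -0.67 and Scarna13 at -0.41, and in 3 with both libraries left out.

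Zinc finger genes with symbols starting Zfp, Zkscan or Zscan were called higher in 13 of 332 tested (3.92%) and lower in 3, with a median of 0.12 in PTZ0, 0.11 in Sal and 0.12 in PTZ45, and 2 were called higher with both choroid-rich libraries left out, 2 with the replicate block, 13 with GC correction and 42 with edgeR. Mitochondrially encoded protein genes were called higher in 4 of 7 tested, mt-Nd2 (0.28), mt-Nd4 (0.30), mt-Nd5 (0.35) and mt-Nd6 (0.39), with a median of 0.28 in PTZ0, 0.15 in Sal and -0.17 in PTZ45. The share of mitochondrial counts was 6.09% to 6.50% in controls and 6.22% to 7.42% in CBP-ifKOs, and its part in these calls was not tested.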
